A study of Mus musculus with 12 samples.

Results

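Lgr5 Epcam- tumour cells, which lack the epithelial surface protein Epcam, were compared with Lgr5 Epcam+ cells from the same mouse model of skin squamous carcinoma by ATAC-seq. In ATAC-seq the Tn5 transposase inserts sequencing adapters into accessible DNA, so that counts over a peak measure how open that stretch is. Members were chosen by title and sort label: 1 Lgr5 Epcam- sample and 2 Lgr5 Epcam+ samples, 3 of the 6 samples in the series, whose single-end and paired-end counts were added up per peak (6 of 12 runs).

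All 3 samples carry Lgr5CreER, and among their other alleles are floxed p53 and a Rosa-YFP reporter. The inducible Cre acts in cells that express Lgr5, a receptor of hair follicle stem cells. The Lgr5 Epcam- and Lgr5 Epcam+ groups thus share every allele and differ in the sort. The series also holds Epcam+ cells of tumours with the same alleles under K14CreER, whose promoter is active in basal keratinocytes (K14 Epcam+, 1 sample), and wild-type hair follicle (HF, 1 sample) and interfollicular epidermis (IFE, 1 sample). The mice are females of mixed strain; their ages and tumour stages are not stated in the sources used here. The sort used antibodies to CD45, CD31 and CD140a, which mark leukocytes, endothelium and Pdgfra-positive mesenchyme and share 1 dye, and to Epcam with another dye. How the gates were set, and whether YFP was used, is not stated in the sources used here.

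Carcinoma cells can pass through epithelial to mesenchymal transition (EMT), in which they lose cell junctions and keratins and gain motile, matrix-producing traits. Transcription factors of the Zeb, Snail and Twist families drive the change and repress epithelial genes such as Cdh1, while Grhl2, Ovol and p63 factors keep the epithelial state. Loss of Epcam at the surface is used in skin tumours to sort cells that have left that state. In bulk samples, fewer cells of a type and less signal per cell cannot be told apart.

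The 3 samples held 41252832 counts in peaks (Lgr5 Epcam-) and 62941406 and 45718546 (Lgr5 Epcam+ samples 1 and 2), and 34.4%, 47.2% and 41.9% of their counts fell in peaks. Counts were compared per peak (177238 peaks tested) and per gene (18112 genes, the counts of all peaks within 50 kb of the nearest protein-coding gene), with edgeR's quasi-likelihood test and a Benjamini-Hochberg threshold of 0.05. Levels are given as CPM, the counts of a feature per 1000000 counts in peaks, and fold changes as log2 of Lgr5 Epcam- over Lgr5 Epcam+ with the standard error (SE). Because the Lgr5 Epcam- group is 1 sample, it was assumed to vary as the Lgr5 Epcam+ pair does. Nothing in the labels says that the pair came from separate animals, so the p-values rest on a spread between samples that may be technical. An exact permutation of 1 sample against 2 cannot go below p = 0.333. Single-end counts of K14 Epcam+ were low on chromosomes 16 to X (8.37% of its counts, against 14.8% in its paired-end run), which lowers its values there.

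Accessibility changed in both directions. Of all peaks, 6.69% were higher (11854) and 5.27% lower (9343) in Lgr5 Epcam-, and of all genes 2.98% were higher (540) and 2.85% lower (516), 5.83% together. The share of higher peaks among the calls was 55.9% with TMM scaling but 35.4% with DESeq2, and higher genes 51.1% with TMM, 62.3% with total-count scaling and 40.4% with DESeq2. By a rule of size (log2 ratio of at least 2, and at least 1 in each run) 5.33% of peaks were higher and 4.46% lower, while between the Lgr5 Epcam+ samples the same rule gave 0.434% and 0.962%.

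Epcam, the adhesion protein used for the sort, checks the labels. Its locus (chromosome 17, 87635979 to 87651127) had 206 CPM in Lgr5 Epcam+ sample 1, 207 in sample 2 and 49.5 in Lgr5 Epcam-. The Lgr5 Epcam- value lay below both others, as it did for 37.9% of all genes (37.8% lay above both). The log2 fold change was -2.06 ± 0.33 (edgeR adjusted p = 0.00692), and all 13 peaks of the locus were below 0, 4 of them called.

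Start-site sequences are shown for genes that went opposite ways, picked after their values were seen: Epcam and the basal keratin gene Krt5 on the less accessible side and the fibrillar collagen genes Col1a2 and Col3a1 on the other. Each runs from 250 bases before to 50 after the transcription start, 5′ to 3′ on the gene's strand, from RefSeq on GRCm38.p6, the build of the mm10 peak coordinates. Capitals mark CAGGTG or its reverse complement CACCTG, the E-box bound by Zeb and Snail factors.
Epcam, chr17:87635729-87636028, plus strand: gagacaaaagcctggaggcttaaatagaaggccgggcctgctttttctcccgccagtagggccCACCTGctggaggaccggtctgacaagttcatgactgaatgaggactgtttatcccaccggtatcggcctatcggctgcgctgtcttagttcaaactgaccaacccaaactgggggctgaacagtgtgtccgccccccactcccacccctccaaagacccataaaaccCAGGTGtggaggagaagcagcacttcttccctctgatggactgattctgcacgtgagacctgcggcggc
Krt5, chr15:101712856-101713155, minus strand: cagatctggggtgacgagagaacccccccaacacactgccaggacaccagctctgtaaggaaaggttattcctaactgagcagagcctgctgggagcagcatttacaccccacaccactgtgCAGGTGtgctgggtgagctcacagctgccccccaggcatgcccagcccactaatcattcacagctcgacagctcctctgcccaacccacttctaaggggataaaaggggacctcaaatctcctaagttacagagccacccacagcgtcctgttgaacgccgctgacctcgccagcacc
Col1a2, chr6:4505368-4505667, plus strand: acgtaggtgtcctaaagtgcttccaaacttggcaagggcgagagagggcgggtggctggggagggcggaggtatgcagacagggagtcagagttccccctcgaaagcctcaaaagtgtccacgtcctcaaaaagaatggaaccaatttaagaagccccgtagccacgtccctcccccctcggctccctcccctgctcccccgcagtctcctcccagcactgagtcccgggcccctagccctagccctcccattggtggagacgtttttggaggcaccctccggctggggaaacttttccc
Col3a1, chr1:45311288-45311587, plus strand: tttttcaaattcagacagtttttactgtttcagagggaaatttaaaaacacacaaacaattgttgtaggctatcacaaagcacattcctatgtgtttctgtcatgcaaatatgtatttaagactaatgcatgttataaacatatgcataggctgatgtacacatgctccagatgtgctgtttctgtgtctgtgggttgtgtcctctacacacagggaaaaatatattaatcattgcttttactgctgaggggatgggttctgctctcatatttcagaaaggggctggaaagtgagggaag

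The Epcam window holds the E-box at positions -187 and -19 from the start site and the Krt5 window at -128, while these letters are not in the windows of Col1a2 and Col3a1. They are not in the window of Krt14 either, a gene whose locus fell, but the start of that window lies 1480 bases inside the gene. The peak over it was not called (-1.14 ± 0.42, edgeR adjusted p = 0.0924), and the window does not cover the outer end of the gene. A window of the claudin gene Cldn7 holds the E-box at -97 and -57, under a peak that was not called (-0.88 ± 0.56). The windows of Vim, Twist1 and Prrx1 lack these letters, and the peaks over them were not called. The peak over the Epcam start had 40.0 CPM and 35.6 CPM in Lgr5 Epcam+ samples 1 and 2 and 4.32 in Lgr5 Epcam- (log2 -3.13 ± 0.39, edgeR adjusted p = 0.00102). The peak over the Krt5 start had 120 and 76.0 CPM against 15.8 (-2.63 ± 0.29). At the Col1a2 start the order was the opposite, with 1.64 and 1.69 CPM in Lgr5 Epcam+ and 21.2 in Lgr5 Epcam- (3.67 ± 0.56), and at the Col3a1 start the values were 1.31 and 1.57 against 9.60 (2.73 ± 0.55). At the Epcam, Krt5, Col1a2 and Col3a1 starts the Lgr5 Epcam- sample lay outside the range of the pair. These peaks were called and picked by value, so this tests nothing. By gene, 37.8% of all lay above both samples of the pair and 37.9% below both.

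Genes of epithelial junctions were less accessible in Lgr5 Epcam-. Cdh1, which encodes E-cadherin, the adhesion protein of adherens junctions, had 310 and 259 CPM in Lgr5 Epcam+ and 101 in Lgr5 Epcam- (log2 -1.49 ± 0.32, edgeR adjusted p = 0.0218). With samples centred in windows of 5 Mb its adjusted p was 0.0546. Of its 28 peaks 27 were below 0 and 7 called, 6 of these next to each other at 1 end of the gene. Of 26 genes of adhesion and polarity 7 fell and 0 rose (median -1.08, against -0.02 over all genes tested), among them the membrane protease gene Tmprss4 (-2.52) and Rab25, a small GTPase of polarised trafficking (-2.08). Epcam itself, on which the groups were sorted, is also counted among these 7, as is Cdh1. With samples centred in windows 4 genes of this list fell, with DESeq2 12 and with start-site and gene-end peaks alone 16. The polarity gene Crb3 (-2.17, adjusted p = 0.0596) and the protease gene Prss8 (-1.49, adjusted p = 0.0512) did not pass.

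Desmosomes anchor keratin filaments between cells, and 8 of 13 desmosome genes fell while 0 rose (median -1.45). The desmosomal cadherin gene Dsg1b, found in differentiating layers, had 33.1 and 66.9 CPM in Lgr5 Epcam+ and 7.29 in Lgr5 Epcam- (log2 -2.78 ± 0.46). Dsg3, the cadherin of basal layers, had -2.19, Dsp, the plaque protein desmoplakin, -1.87, and Pkp3, a plakophilin, -1.74. Of the 215 peaks of these genes, 32.1% were lower and 0 higher. With samples centred in windows 3 of the 13 genes fell, and with K14 Epcam+ added 4. Fewer members of the hemidesmosome, which ties basal cells to the basement membrane, were called: 2 of 11 fell (Lama3, a chain of laminin-332, -1.50, and Itga6, its integrin receptor, -1.33) and 0 rose (median -0.70). Itga6 was called under 5 of 14 alternatives, and had -0.80 with peaks within 1 kb of a start site or gene end. Col17a1 (-1.16, adjusted p = 0.123) and Lamb3 (-1.10, adjusted p = 0.0759) did not pass.

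Keratins of basal and wounded squamous epithelium had the lowest median of the 27 gene lists described here (-2.26). All 7 fell, and 63.4% of their 41 peaks were lower. Krt6b, a member of this list, was called under 5 of 14 alternatives. Krt17, a keratin of stressed epidermis and follicle, had 165 and 146 CPM in Lgr5 Epcam+ and 17.9 in Lgr5 Epcam- (log2 -3.12 ± 0.36, edgeR adjusted p = 0.00224). For Krt5, the partner of Krt14 in basal cells, the values were 264 and 161 CPM against 40.2 (-2.40 ± 0.40). Krt14 had 213 and 224 CPM against 50.7 (-2.11 ± 0.33). The wound keratin gene Krt6a fell by 2.91 on the log2 scale and Krt16, another, by 2.26. Krt15, a keratin of basal and bulge cells that had 180 CPM in HF, was already at 20.1 and 24.8 in Lgr5 Epcam+ and had 9.20 in Lgr5 Epcam- (-1.28 ± 0.33, adjusted p = 0.0425; called under 5 of 14 alternatives).

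Of 5 simple keratins, which are typical of single-layered epithelia, edgeR called 0 in either direction (1 had an unadjusted p under 0.05, and DESeq2 called 0), with a median of 0.21. Over all genes tested 5.83% were called, so 0 calls among 5 genes says little. Krt8 had 45.9 and 22.6 CPM in Lgr5 Epcam+ and 42.2 in Lgr5 Epcam-, and Krt18, its partner, 102 and 53.6 against 89.7, both within the range of the pair. Krt18 had a log2 fold change of 0.21 ± 0.38. Krt19 lay below the pair, with 26.4 and 29.99 CPM against 17.02 (-0.73 ± 0.31, adjusted p = 0.2197), and Krt7 above it, with 33.5 and 36.4 against 46.0 (0.40 ± 0.28). Over all 51 measured genes with a Krt symbol, 16 fell and 0 rose. Of these, Krt13 was called under 4 of 14 alternatives and Krt73 under 2 of 12.

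Differentiation genes, whose products form the cornified layer, gave 6 lower and 0 higher of 19 (median -1.03). They included Krtdap (-2.85) and Dmkn (-2.43), secreted proteins of differentiating keratinocytes, Abca12, a lipid transporter of the barrier (-2.06), and Sprr1b, a cornified envelope precursor (-1.73). Tgm1, the crosslinking enzyme of the envelope, had 68.1 and 25.7 CPM against 9.84 (-2.25, adjusted p = 0.0626).

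Regulators of the epithelial state were lower as well. Of 20, 9 fell and 0 rose (median -1.19), and 18.6% of their 381 peaks were lower and 0.262% higher. Grhl2, a transcription factor that maintains Cdh1 expression, had 407 and 299 CPM in Lgr5 Epcam+ and 117 in Lgr5 Epcam- (log2 -1.59 ± 0.34, edgeR adjusted p = 0.0209), but its adjusted p was 0.0701 with K14 Epcam+ added to the Lgr5 Epcam+ group. Esrp1, which sets epithelial splicing, had 207 and 176 CPM against 53.6 (-1.84 ± 0.33). Tfap2c (-2.06) and Zfp750 (-2.12), transcription factors of keratinocyte commitment and differentiation, also fell. The count of this list was 4 with K14 Epcam+ added, 5 with samples centred in windows, and 6 with loess or total-count scaling. In the epithelial lists above, from adhesion to regulators, edgeR called 0 members higher, DESeq2 0, and 1 regulator had an unadjusted p under 0.05 in that direction.

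Trp63, the gene of the p63 factor that specifies stratified epithelium, did not pass at gene level. Its 67 peaks summed to 510 and 406 CPM in Lgr5 Epcam+ and 223 in Lgr5 Epcam- (log2 -1.04 ± 0.32, edgeR adjusted p = 0.0828), although DESeq2 gave an adjusted p of 0.0278. Peak by peak, 12 were lower and 0 higher, with values from -3.18 to 1.23. Ovol1 and Ovol2, repressors of EMT, had -1.78 (adjusted p = 0.106) and -1.08 (adjusted p = 0.0599). Ovol1 differed widely within the pair, with 127 and 49.7 CPM.

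**Figure D1:**
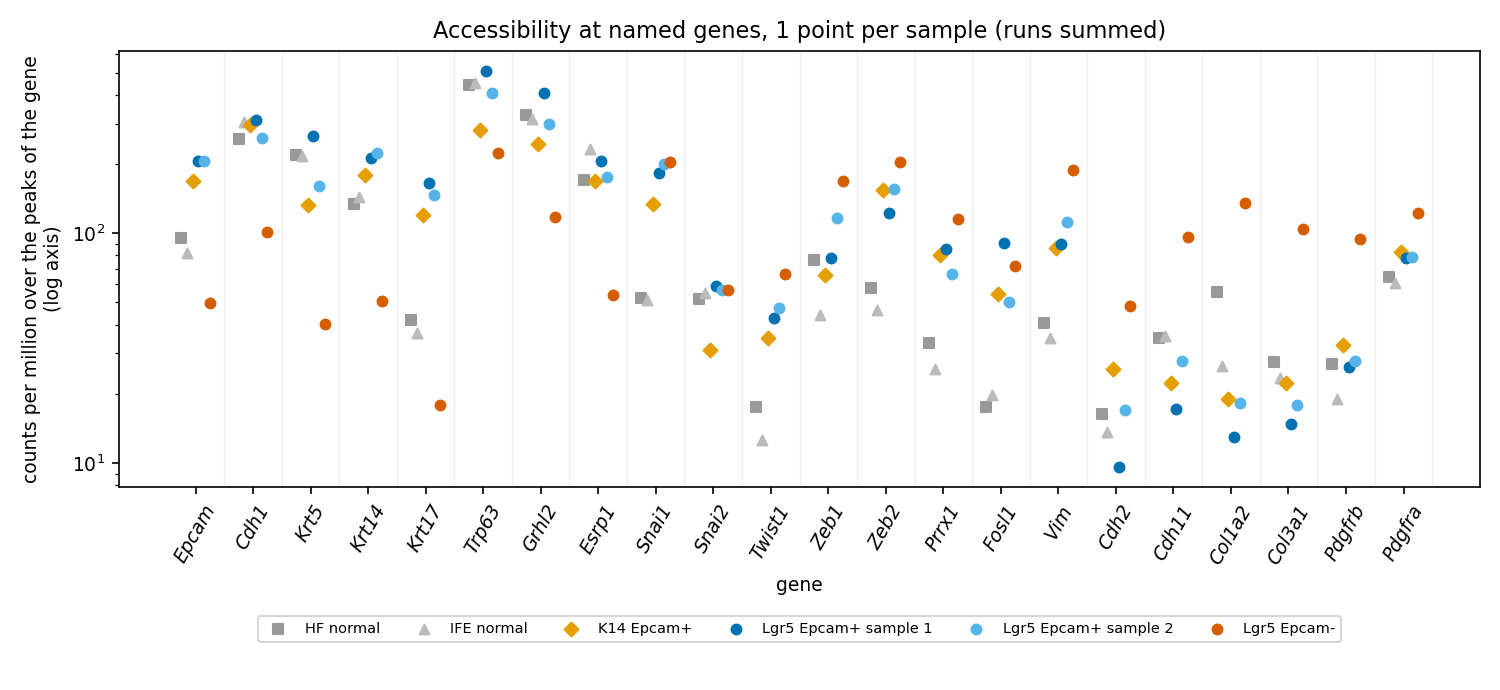
CPM over the peaks of 22 genes (log axis), with 1 point for each of the 6 samples, runs summed. The orange Lgr5 Epcam- points lie under both blue Lgr5 Epcam+ points for Epcam, Cdh1 and the keratins, near or within them for Snai1, Snai2 and Fosl1, and above both for Cdh2, Col1a2 and Col3a1.

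The genes of the EMT transcription factors had a positive median and no single call, where 5.83% of all genes tested were called. Of 14, edgeR called 0 higher and 0 lower (1 and 0 at an unadjusted p under 0.05, and DESeq2 0 and 0), with a median of 0.42. Zeb1, a repressor of Cdh1, had 78.2 and 117 CPM in Lgr5 Epcam+ and 168 in Lgr5 Epcam- (log2 0.79 ± 0.32, edgeR adjusted p = 0.197). When only peaks within 10 kb of the gene were counted, Zeb1 rose by 1.67 (adjusted p = 0.0242), and by 1.79 with peaks within 1 kb of a start site or gene end (adjusted p = 0.00395). Its relative Zeb2 had 122 and 156 against 204 CPM (0.56 ± 0.31), and with peaks within 1 kb of a start site or gene end it rose by 1.27 (adjusted p = 0.00137). The homeobox gene Prrx1 had 85.2 and 66.6 against 116 (0.61 ± 0.30).

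Single peaks of these genes did pass. Of the 255 peaks of the list 10.6% were higher (27) and 0.784% lower (2), where 6.69% of all peaks tested were higher and 5.27% lower. Tcf4, another gene of the list, held more of the higher peaks than any gene named below, with 10 higher and 1 lower of 62. At Zeb1 8 of 21 peaks were higher and 0 lower, at Zeb2 4 of 22 and at Prrx1 4 of 15, all 4 of them beyond the same end of the gene. The largest at Prrx1 (chromosome 1, 163238984 to 163239984) had 0.729 and 0.986 CPM in Lgr5 Epcam+ and 6.44 in Lgr5 Epcam- (2.91 ± 0.56). The highest value at Zeb1 (chromosome 18, 5619223 to 5620223, inside the gene) was 2.69 ± 0.59, from 0.565 and 1.15 CPM to 5.52. In Lgr5 Epcam+ both peaks were below the median of uncalled peaks (2.74 and 2.79 CPM).

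No Snail or Twist gene was called over all its peaks. Snai1 had 184 and 200 CPM in Lgr5 Epcam+, 204 in Lgr5 Epcam- and 52.1 in HF, with a log2 fold change of 0.09 ± 0.30 and 0 of 18 peaks called. Snai2 had 58.9 and 56.5 CPM against 56.9 (-0.02 ± 0.29), and its sign turned under 5 of the alternatives. Twist1 had 42.6 and 47.4 against 66.5 (0.56 ± 0.28) and Twist2 104 and 92.3 against 99.2 (0.01 ± 0.30). Of the 6 peaks of Twist1 1 was lower (-3.20 ± 0.85), and of the 14 of Twist2 1 was higher. Of these 4, Snai1 and Twist1 lay above both samples of the pair, as did 37.8% of all genes, and Snai2 and Twist2 lay within its range.

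**Figure D2:**
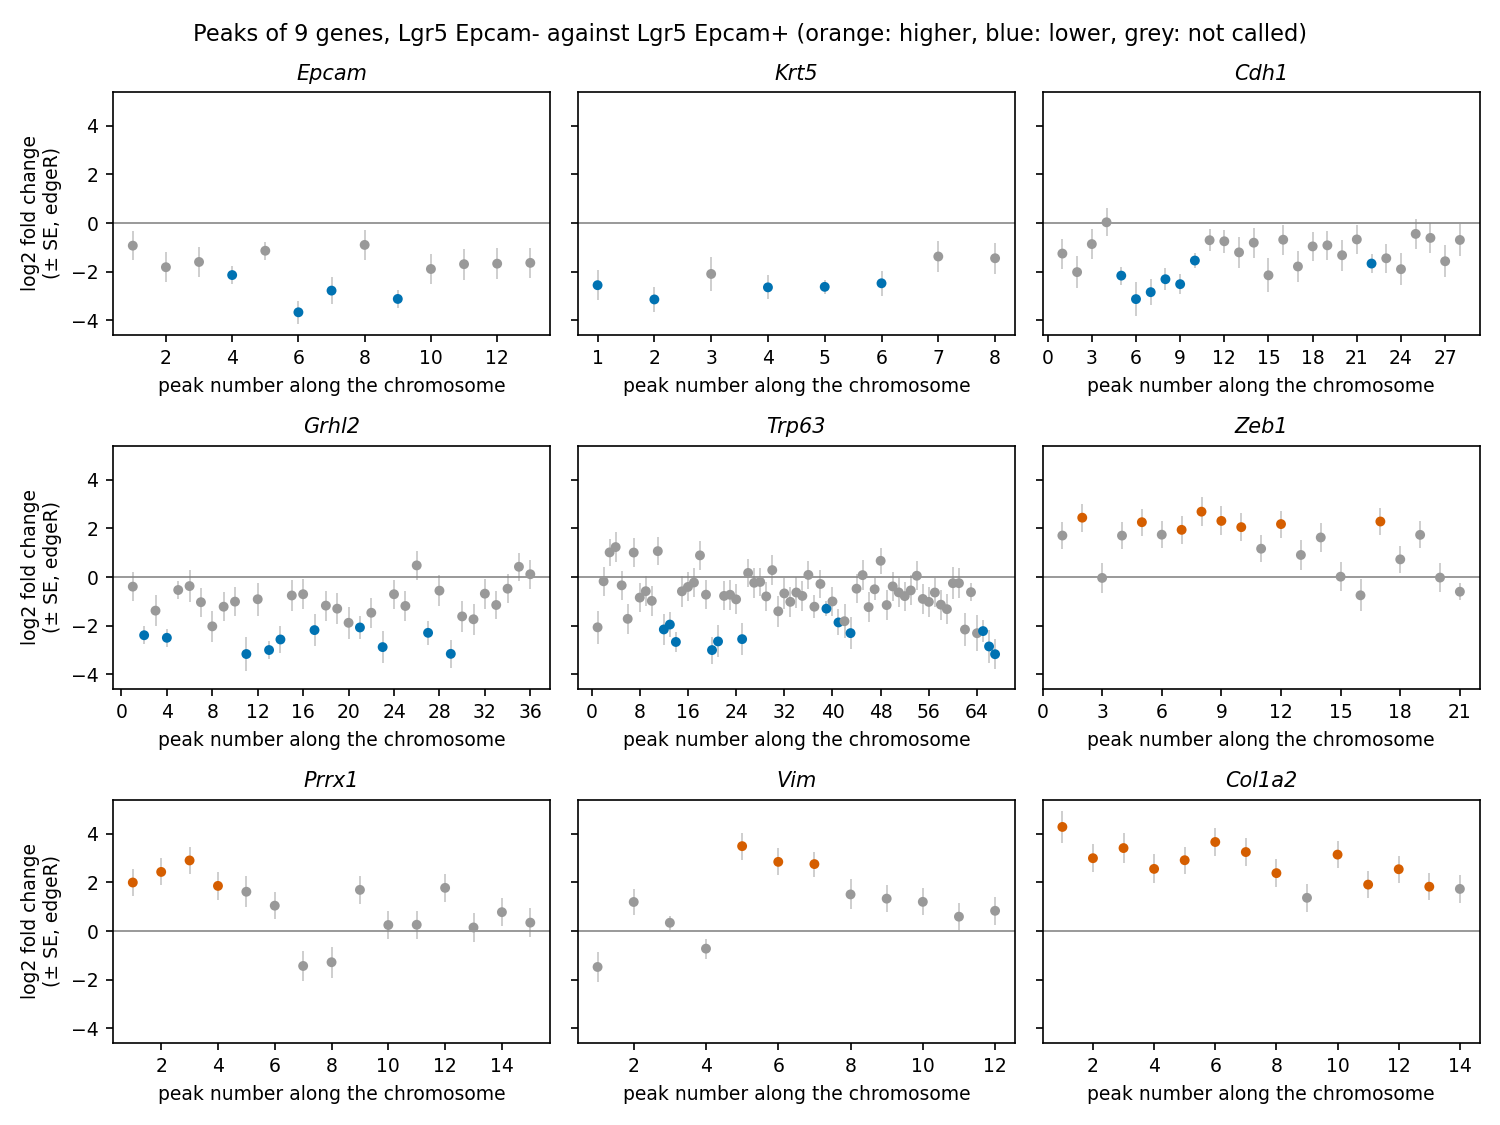
Log2 fold change of each peak of 9 genes, in order along the chromosome, with bars of 1 SE (edgeR). All peaks of Epcam and Krt5 lie below 0 and all 14 of Col1a2 above 0, while Trp63 mixes 12 called lower peaks with many uncalled ones, and the called peaks of Zeb1, Prrx1 and Vim all lie above 0.

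Genes of the mesenchymal structure and matrix rose in Lgr5 Epcam-. Of 25, 14 were higher and 0 lower (median 1.37), and 33.9% of their 366 peaks were higher and 0.820% lower. Col1a2, a chain of type I collagen, had 13.0 and 18.2 CPM in Lgr5 Epcam+ and 136 in Lgr5 Epcam- (log2 3.13 ± 0.30, edgeR adjusted p = 0.000738), and 12 of its 14 peaks were called. Col3a1, the chain of type III collagen, had 14.7 and 17.96 CPM against 104 (2.67 ± 0.29), and Col5a2 rose by 2.31. Tagln, an actin-binding protein of contractile cells, rose by 2.21. Over all 43 genes with a Col symbol, 8 rose and 0 fell. Without the dense stretches of chromosome 9 described below, 8 matrix genes rose. Those stretches hold Loxl1, and matrix genes outside them lost the call too. The number was also 8 with K14 Epcam+ added to the Lgr5 Epcam+ group. With samples centred in windows, or with the 3 Lgr5 samples alone, 9 rose. In each of these settings 0 fell.

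The cadherin genes moved in opposite directions. Cdh2, which encodes N-cadherin, had 9.59 and 16.98 CPM in Lgr5 Epcam+ and 48.0 in Lgr5 Epcam- (log2 1.86 ± 0.38, edgeR adjusted p = 0.0185; 0.133 with K14 Epcam+ added to the Lgr5 Epcam+ group). Cdh11, a cadherin of mesenchymal cells, had 17.3 and 27.9 against 96.6 (2.10 ± 0.32). Of 21 genes with a Cdh symbol, these and Cdh18 rose and Cdh1 alone fell in this test.

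Vim, the intermediate filament gene of mesenchymal cells, had 89.4 and 112 CPM in Lgr5 Epcam+ and 189 in Lgr5 Epcam- (0.90 ± 0.30, edgeR adjusted p = 0.107). Its level was thus above that of HF (40.6) in all 3 tumour samples. Of its 12 peaks 3 were higher, the first inside the gene (chromosome 2, 13578043 to 13579043) with 1.40 and 1.34 CPM against 15.5 (3.50 ± 0.56). Fn1, the fibronectin gene, had 51.7 and 101 against 188 CPM (1.30, adjusted p = 0.0750), and 15 of its 32 peaks were higher. Lox, a collagen crosslinking enzyme, had 16.2 and 54.5 against 142 (2.004 ± 0.56, adjusted p = 0.0845), with a wide gap within the pair.

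Markers of stromal cells moved with these genes. Of 14 fibroblast markers 6 rose and 0 fell (median 1.24), and their summed level was 767 and 869 CPM in Lgr5 Epcam+ and 1185 in Lgr5 Epcam-. Pdgfra, the CD140a gene of the sort, had 78.1 and 79.1 CPM against 123 (log2 0.64 ± 0.29, edgeR adjusted p = 0.250). The microfibril gene Mfap5 (1.63) and the matrix proteoglycan gene Lum (2.09) were among those that rose. Lum had 3.48 and 8.62 CPM in the pair against 25.6, and was called under 4 of 14 alternatives. Of 11 pericyte and smooth muscle markers 3 rose and 0 fell (median 0.56; 466 and 384 CPM summed, against 586). They were Tagln, Rgs5, a pericyte regulator (2.80 ± 0.41), and Pdgfrb, a receptor of mesenchymal cells, with 26.1 and 27.8 against 94.6 CPM (1.81 ± 0.27). In the matrix, fibroblast and pericyte lists edgeR called 0 members lower, with 0 at an unadjusted p under 0.05 and 0 by DESeq2. None of the measured markers was at 0 in any of the 3 samples.

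The marker and matrix lists overlap. Of the 25 matrix genes 7 are also on the fibroblast or pericyte list, and 5 of these rose; of the other 18, 9 rose (median 1.25), Cdh2 and Cdh11 among them. Keratinocyte markers summed to 2089 and 1798 CPM in Lgr5 Epcam+ and 635 in Lgr5 Epcam-, and 6 of 7 fell. All 7 are also on the epithelial lists above, and Epcam among them was used for the sort, so this count is not a separate result. Leukocyte markers summed to 292 and 330 CPM against 269 and endothelial markers to 959 and 867 against 856. Ptprc, the CD45 gene, had -0.56 (adjusted p = 0.384) and Pecam1, the CD31 gene, -1.03 (adjusted p = 0.0797). Csf1r, a macrophage receptor (1.28), was the 1 immune marker of 15 that rose, and Emcn (1.09) and Tek (1.17) were the 2 endothelial markers of 14; none of these 3 calls remained with loess scaling. Of 11 melanocyte and Schwann cell markers 0 rose and 1 fell (Erbb3), and of 9 skeletal muscle markers edgeR called 0 (1 and 1 at an unadjusted p under 0.05, DESeq2 0 and 0). Over all genes tested 2.98% rose and 2.85% fell, so such small counts in short lists say little about these 4 groups of markers. The part of stromal cells in the higher mesenchymal values was not tested.

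**Figure D3:**
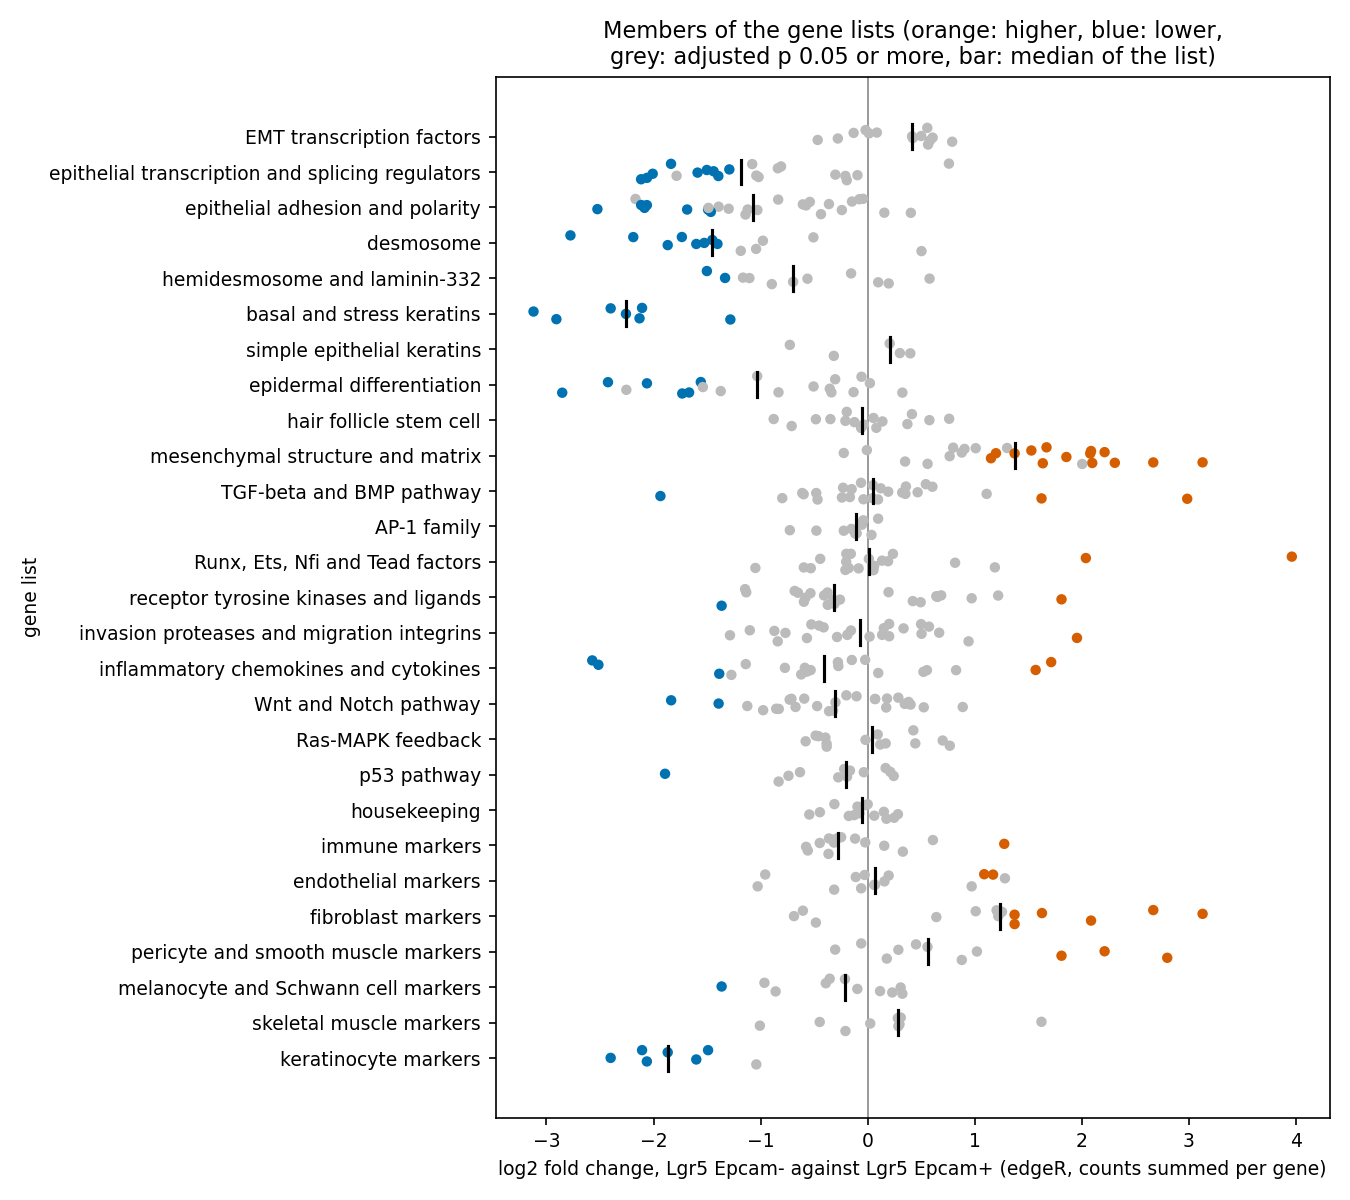
Log2 fold change of each measured member of the 27 gene lists, with a bar at the median of each list. The medians of the desmosome (-1.45) and the basal and stress keratin list (-2.26) lie to the left of 0 and those of the matrix (1.37) and fibroblast lists (1.24) to the right, while the simple keratins have a median of 0.21.

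Few members of the signalling lists were called, where 2.98% of all genes tested rose and 2.85% fell. In the TGF-beta and BMP pathway 2 of 26 rose and 1 fell (median 0.05). Bmp4, a ligand, rose by 1.62, from 23.4 and 24.0 CPM to 73.0, and Bmp7, another ligand, fell by 1.94, from 363 and 337 CPM to 91.4. Smad6, an inhibitor of the pathway, was the other that rose (2.98); without the dense stretches of chromosome 9 described below it had 0.30 (adjusted p = 0.710). Among receptor tyrosine kinases and their ligands Pdgfrb rose and Erbb3, a receptor of the Egf family, fell by 1.36, 1 each of 24 (median -0.32). In the Wnt and Notch pathway the Wnt antagonist gene Sfrp1 (-1.84) and the Notch ligand gene Dll1 (-1.39) fell and 0 of 27 rose (median -0.30).

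Cytokine genes went both ways, with 2 of 20 higher and 3 lower (median -0.41). Il24 fell by 2.57, from 120 and 71.4 CPM to 16.1, and Tnf, a central inflammatory cytokine, by 2.51, from 81.8 and 54.8 CPM to 11.95. Il1b fell by 1.39 over all its peaks, but with peaks within 1 kb of a start site or gene end it had 0.15. The chemokine genes Cxcl12 (1.57) and Ccl7 (1.71) rose. Of 24 invasion proteases and migration integrins only Adam19, a membrane protease, was called (1.95 ± 0.35), where 5.83% of all genes were. Mmp9 had 119 and 45.3 CPM against 33.7 (-1.29, adjusted p = 0.234).

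For several other lists edgeR called no member, where 5.83% of all genes tested were called. Of 10 AP-1 genes 0 were called (0 higher and 1 lower at an unadjusted p under 0.05, DESeq2 0 and 0; median -0.11), and Fosl1 had 91.0 and 50.04 CPM in Lgr5 Epcam+ and 72.3 in Lgr5 Epcam- (0.04 ± 0.36). Of 14 MAPK feedback genes 0 were called (2 and 0 unadjusted, DESeq2 0 and 0; median 0.04). In the hair follicle stem cell list 0 of 16 were called (1 and 2 unadjusted, DESeq2 0 and 0; median -0.05), and Lgr5, whose promoter drives the Cre, had 55.99 and 75.2 CPM against 69.4 (0.08 ± 0.32). The housekeeping list had 0 of 14 called (0 and 0 unadjusted, DESeq2 0 and 0; median -0.05). Among 21 Runx, Ets, Nfi and Tead factors 2 rose and 0 fell (median 0.01), both on chromosome 9, Yap1 and the Ets gene Fli1 (2.04 ± 0.42). In the p53 list Trp73, a relative of p53 and p63, was the 1 of 12 that fell (-1.89), and Trp53 itself, which is floxed in these tumours, had 21.3 and 20.4 CPM against 24.6 in its 1 peak.

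Outside the lists, the genes that led the calls were of the same kinds in part. Apart from those already named, the 12 lowest included Nlrp10, a gene of innate immunity in skin, with 57.9 and 89.8 CPM in Lgr5 Epcam+ and 6.57 in Lgr5 Epcam- (log2 -3.49 ± 0.40), and the surface protein gene Ly6d (-2.46 ± 0.44). Smcp (-2.78), Tmem51 (-2.54) and Mill1 (-2.46) were also among them. The 12 highest included Ebf1, a transcription factor of B cells and mesenchyme, with 46.0 and 68.8 CPM against 253 (2.14 ± 0.32) and 28 of 39 peaks higher. Rftn1 (2.81), Epb41l3, a membrane skeleton protein (2.57), Jph2 (2.41), the protocadherin gene Dchs2 (2.37), the procollagen peptidase gene Adamts2 (2.24), Rcan2 (2.17) and Khdrbs3 (2.15) stood beside the collagens. All 68 called genes taken from the lists, the fixed set and the leading genes kept their sign when either Lgr5 Epcam+ sample was left out. The calls used these same samples and need a difference large against the pair, so the sign could hardly turn and nothing was tested.

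Among single peaks of above-median level outside the dense stretches, the largest rise lay inside Ltbp1, which encodes a TGF-beta binding protein (chromosome 17, 75274967 to 75275967). It had 0.802 and 0.728 CPM in Lgr5 Epcam+ and 15.9 in Lgr5 Epcam- (log2 4.37 ± 0.58). A peak 47667 bases from Col1a2 (chromosome 6, 4456951 to 4457951) rose by 4.29 ± 0.65, from 0.456 and 1.24 CPM to 16.5. The largest fall lay inside Ppfibp2 (chromosome 7, 107685167 to 107686216), from 22.3 and 17.6 CPM to 0.943 (-4.40 ± 0.44), where HF had 30.8 and IFE 39.6. A peak near Ddr1, a collagen receptor gene of epithelia, fell by 4.25 ± 0.54. One of the 8 lowest, near Kcnj6, had 31.5 and 2.96 CPM in the pair and 0.943 in Lgr5 Epcam- (-4.19 ± 1.19, edgeR adjusted p = 0.0417), so that it rests on 1 Lgr5 Epcam+ sample.

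Called peaks differed in where they lay. Within 1 kb of a start site were 9.96% of all peaks, 4.31% of those called higher and 8.08% of those called lower. Farther than 50 kb from any coding gene were 16.7% of all peaks, 28.6% of those called higher and 18.1% of those called lower, and 11.5% of these far peaks were higher, against 6.69% of all. Higher peaks were low elsewhere: their median was 0.894 and 1.10 CPM in Lgr5 Epcam+, 1.65 in HF and 1.34 in IFE, against 5.40 in Lgr5 Epcam-. Lower peaks had medians of 16.4 and 14.3 CPM in Lgr5 Epcam+, 5.01 in HF and 7.26 in IFE, against 2.48 in Lgr5 Epcam-. Since the calls used these Lgr5 values, the levels describe the called peaks and test nothing.

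**Figure D4:**
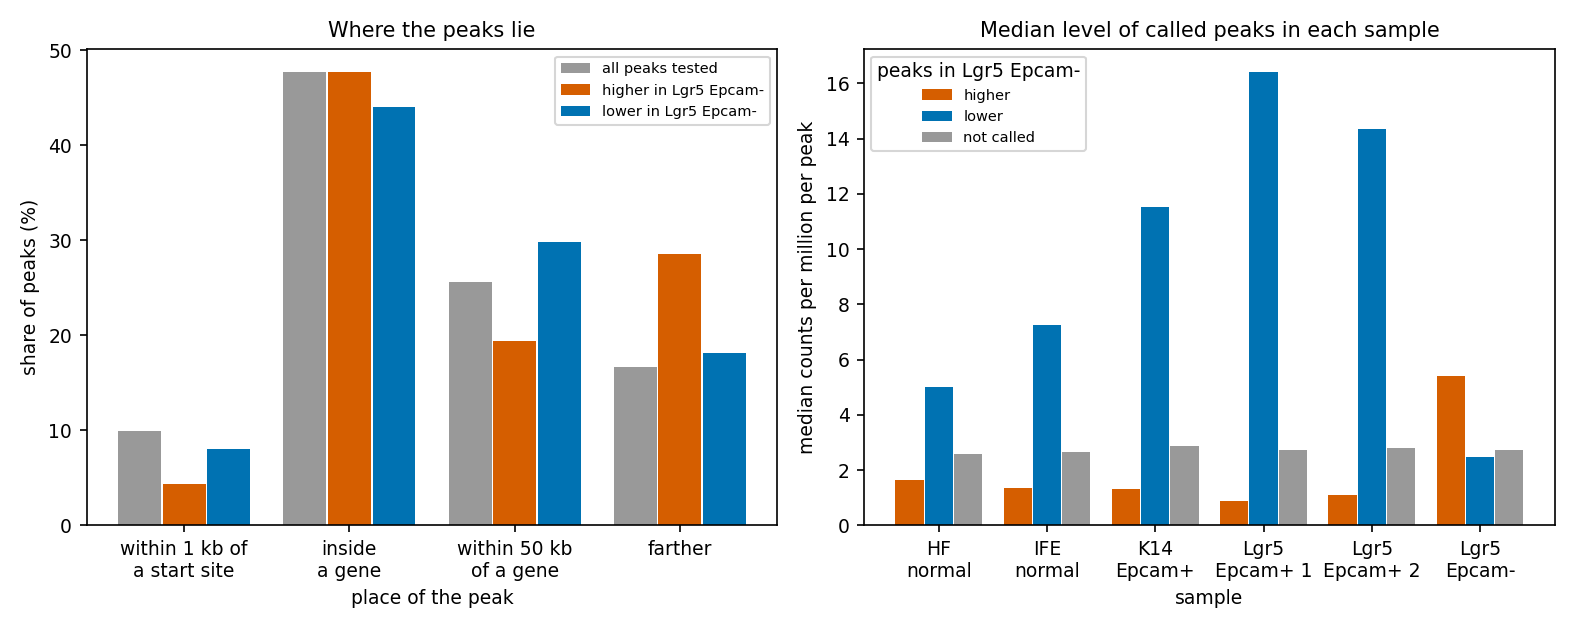
Left, share of all tested, higher and lower peaks by place (%); right, median CPM of higher, lower and uncalled peaks in each sample. Far peaks make up 28.6% of those called higher and 18.1% of those called lower, and uncalled peaks have medians of 2.59 to 2.86 CPM in every sample.

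Some genes held peaks of both kinds. Of the 18112 genes tested, 3647 had a higher peak, 3890 a lower one and 968 both. Over all peaks 6.69% were higher and 5.27% lower, and genes with many peaks can more easily hold both. Whether the count of 968 goes beyond these shares was not tested. Runx2, a bone and mesenchyme factor also found in follicles, had 1 higher and 6 lower of 54 peaks, the receptor gene Egfr 2 and 5 of 44, and Nfia 4 and 4 of 71, and none of these was called over all its peaks. These genes were picked from the lists after their values were seen.

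Start-site windows of 300 bases were searched for 3 motifs on both strands. CAGGTG, whose other strand reads CACCTG, was in 20.2% of all 32817 windows and in 19.6% of the 17789 that lie under a tested peak. Where that peak was lower the share was 35.5% (228 of 643 windows, 542 distinct peaks), and where it was higher 13.0% (55 of 423 windows, 366 distinct peaks). TGANTCA, the AP-1 site, was in 7.18% of windows under tested peaks, 17.3% under lower and 10.6% under higher ones. AACCGGTT, a Grhl site, was rare, with 0.214%, 0.311% and 0.473%. Median GC content was 59.7% in windows under tested peaks, 55% under lower and 54% under higher ones. A match describes the letters only, and windows that share a peak are not independent.

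Some high and low values lay side by side. Stretches were defined by a running median of 25 peaks of at least 1 in log2 ratio, so that most of their peaks share a sign by construction. On chromosomes other than 9, 242 high stretches held 10 peaks or more, and 239 low stretches, defined the same way below 0 after the values were seen, did so on all chromosomes. The high ones included 69 peaks around Col3a1 and Col5a2 on chromosome 1 (67 above 0, median 2.14), 67 around Ebf1 on chromosome 11 (median 2.18) and 67 around Col1a2 on chromosome 6 (median 1.94). The low ones included 98 peaks around Bmp7 and Tfap2c on chromosome 2 (92 below 0, median -1.40) and 53 around the desmocollin genes on chromosome 18 (50 below 0, median -1.11).

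On chromosome 9, 12.4% of the 9287 peaks were higher (6.46% outside its high stretches), against 3.96% to 9.36% on the other chromosomes, Y with its 34 peaks left aside. Its high stretches numbered 46, with 984 peaks. Among the 23 of these with 10 peaks or more, 5 reached a median of 3 or more, and on other chromosomes the largest median of a stretch of that size was 2.32. The longest (7734722 to 9145280) held 179 peaks with a median of 3.63 over Yap1, the effector of the Hippo pathway, and Birc2 and Birc3, inhibitors of cell death. Yap1 had 230 and 147 CPM in Lgr5 Epcam+, 230 in HF and 2936 in Lgr5 Epcam- (log2 3.96 ± 0.33), with 42 of 42 peaks higher, and Birc2 had 79.1 and 58.6 against 1024 (3.89 ± 0.31). The others held Dpy19l1 and Tbx20 (24340867 to 24811289), no coding gene (47362020 to 47467490), Uaca (60899015 to 61117758) and Smad6 (63835728 to 64026288). ATAC-seq counts rise with the number of copies of a stretch of DNA as well as with its openness, and these cannot be told apart from counts in peaks. Left out of the fit, the stretches of chromosome 9 took the calls to 11165 higher and 9114 lower peaks, and to 336 higher and 287 lower genes. The genes tested went only from 18112 to 18084, so genes elsewhere lost calls too. Itga6 on chromosome 2 lost its call while its log2 fold change went from -1.33 to -1.32. The prior degrees of freedom of the gene fit went from 10.6 to 7.46, and the cause of the lost calls was not tested.

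**Figure D5:**
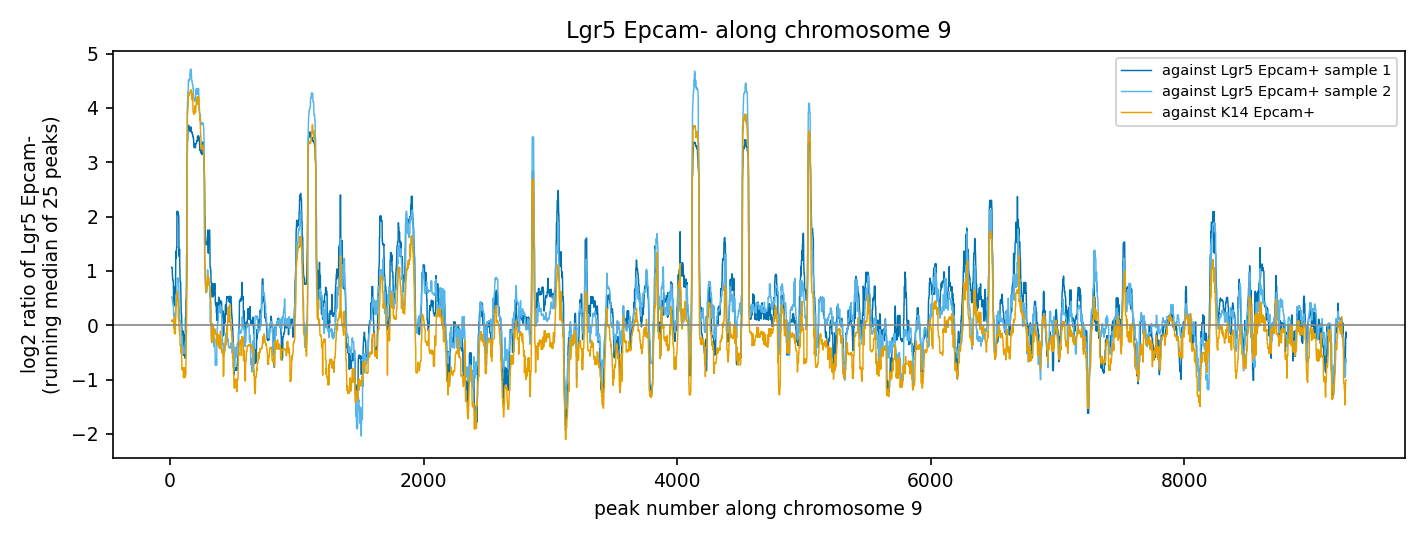
Running median over 25 peaks of the log2 ratio of Lgr5 Epcam- to each Lgr5 Epcam+ sample and to K14 Epcam+, by peak order along chromosome 9. The 5 stretches of 10 peaks or more with a median of 3 or more rise in all 3 ratios, and peaks outside all 46 high stretches have a median of 0.05.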

How the data were processed

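Per the labels' protocols, sorted cells went into ATAC-seq with a Nextera kit. The authors deposited 12 tables of raw counts per peak, 1 per run, over a shared list of 177240 peaks 661 to 7053 bases wide. Per the submitters' processing notes, Bowtie2, HOMER, bedtools and HTSeq were used on mm10; versions, read filters, duplicate removal and peak calling: not given in the sources used here. Reads outside peaks, listed by HTSeq, were left out of tests. Molecules cannot be told from PCR copies. Depth in peaks ranged from 32086654 to 62941406 counts per sample.

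Runs were summed per sample. Peaks went to the nearest protein-coding gene of RefSeq GRCm38.p6 within 50 kb (146665 peaks, 82.7%; 18114 of 21900 genes), and start sites came from RefSeq promoters. All 6 samples in 5 groups were fitted with edgeR 4.0.16 (R 4.3.3, limma 3.58.1; TMM, filterByExpr with minimum count 10, robust quasi-likelihood fit, 1 residual degree of freedom, from the Lgr5 Epcam+ pair). The common biological coefficient of variation was 0.325 for peaks and 0.220 for genes. The procedure was tested on simulated data in which every sample had the same spread. Such data cannot test whether the Lgr5 Epcam- sample varies as the pair does. CPM values are TMM-scaled. The rule of size used a prior count of 2. DESeq2 1.42.0 and the other alternatives are given in the closing section.

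Members, lists and the rule for named genes were chosen with earlier results of these data known. Named are up to 4 called members per list and direction and up to 2 uncalled ones, a fixed set of genes of EMT, epithelium and the sort, symbol families, and the 12 genes and 8 peaks that lead in each direction, outside the dense stretches of chromosome 9. Of 434 list entries 429 were measured; Cd8a, Lyz2, Fcer1g, Tyr and Lce1a1 were not. An allele of the tumour genotype and some genes are not reported here.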

Additional observations from a re-analysis of the deposited data

How the results depend on the processing

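The Lgr5 Epcam- group is 1 sample, so its own spread was not measured, and calls rest on the 1 residual degree of freedom of the pair. Low peaks limit precision: peaks called higher had medians of 0.894 and 1.10 CPM in the Lgr5 Epcam+ samples. No paired analysis was possible because the groups compared share fewer than 2 replicate numbers.

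Against 11854 higher and 9343 lower peaks, loess scaling gave 7126 and 5312, DESeq2 5624 higher, and glmTreat against a log2 fold change of 1 gave 2786 and 2525. With total-count scaling, under which the median over all peaks was 0.14 in place of -0.05, there were 17149 and 10088. Against 540 higher and 516 lower genes, there were 242 and 227 with samples centred in 5 Mb windows, 213 and 205 with K14 Epcam+ added to the Lgr5 Epcam+ group, 34 and 14 with glmTreat, 336 and 287 without the dense stretches of chromosome 9, 348 and 311 with peaks within 10 kb and 814 and 900 with peaks within 1 kb of a start site or gene end. The lower genes alone moved to 278 with total-count scaling, 788 with DESeq2 and 313 with the 3 Lgr5 samples alone. Centring in windows removes shifts shared by neighbours by construction; the cause of the other moves was not tested. By size, 9451 peaks were higher and 7904 lower; leaving out 1 Lgr5 Epcam+ sample gave 8012 to 12357 and 8499 to 10208, and a log2 limit of 1 gave 28853 and 29405.

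Of 68 called genes taken from the lists, the fixed set and the leading genes, 46 stayed called with samples centred in windows, 48 with K14 Epcam+ added, 17 with glmTreat and 67 with DESeq2. Some calls were kept under fewer than 7 of 14 alternatives (13 for Emcn, 12 for Krt73). Among the 68 genes these were Csf1r, Dll1, Emcn, Il1b, Itga6, Krt15, Lum and Tek. In the symbol families they were also Fgf7, Fgf10, Sema5b, Foxo6, Foxq1, Sox30, Mmp16, Dsc3, Krt6b, Krt13 and Krt73. Il1b was the called gene whose sign turned, to 0.15 with peaks within 1 kb. Signs of uncalled genes turned with peaks within 1 kb for Fosl1 (-0.25), Krt18 (-0.019), Krt19 (0.066), Krt7 (-0.19) and Twist2 (-0.52), with peaks within 10 kb for Adgre1 (0.14), Lgr5 (-0.00184), Ptprc (0.15) and Twist2 (-0.12), and in windows for Fosl1 (-0.10) and Lgr5 (-0.00468). Snai2 turned to 0.079 with total-count scaling, 0.030 with loess scaling, 0.20 in windows, 0.00975 in single-end runs and 0.22 with K14 Epcam+ added.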

Other observations

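Patterning and growth factor genes moved in small numbers. Of 39 genes with a Hox symbol, which set position along the body, 1 rose (Hoxa6) and 0 fell, with a median log2 fold change of 0.54 against -0.02 over all genes tested; of all genes 2.98% rose and 2.85% fell. Of 22 genes with an Fgf symbol 3 rose (Fgf7, Fgf10 and Fgf23) and 2 fell (Fgf12 and Fgf21); Fgf7 and Fgf10 encode ligands that mesenchymal cells send to epithelium, and were called under 3 and 5 of 14 alternatives. Of 10 Tbx genes 1 rose (Tbx18, which lies in a high stretch of chromosome 9), of 20 Sema genes 2 rose (Sema5b and Sema7a), and of 21 claudin genes 2 fell (Cldn8 and Cldn17).

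Low stretches, whose peaks mostly share a sign by construction, held several genes of epithelium along with others. That over the Tmprss11 protease cluster on chromosome 5 held 78 peaks, 73 of them below 0 (median -1.52). Around Klf5, a factor of epithelial progenitors, on chromosome 14, 63 of 71 peaks were below 0 (median -1.37). A stretch with Il10, Il19, Il20, Il24, Fcmr, Pigr and Yod1 on chromosome 1 had 52 of 53 peaks below 0 (median -1.40), and 1 with the plakophilin gene Pkp1, Lad1, Igfn1 and the troponin genes Tnni1 and Tnnt2 on the same chromosome 54 of 55 (median -1.52).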
